A study of Homo sapiens with 10 samples.

Results

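The clones compared here lacked the adenine DNA glycosylase MUTYH or carried it. All were of HAP1, a human line with a near-haploid karyotype that descends from the chronic myeloid leukaemia line KBM-7. Of the 10 RNA-seq libraries in the series, the 8 from untreated cells were used. The MUTYH-lacking set held 4 libraries, from MUTYH knockout clones 7 and 8 and from clones 4 and 14 of the double knockout (DKO), which lacks both MUTYH and the 8-oxoguanine DNA glycosylase OGG1. The MUTYH-proficient set held 4 libraries, from wild-type (WT) clones 2 and 11 and OGG1 knockout clones 1 and 22. OGG1 was therefore absent from 2 clones on each side and entered the model as a covariate. All knockouts were made with CRISPR-Cas9, each library came from a separate clone, and no library was pooled. Both DKO clones were derived from a single OGG1 knockout clone, whose product code points to clone 22, so the DKO libraries share a lineage with each other and with that library.

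Guanine is the base most easily oxidised, and the product, 8-oxoguanine, pairs with adenine as well as with cytosine during replication. OGG1 removes 8-oxoguanine that still lies opposite cytosine. MUTYH acts after a wrong pairing and removes the adenine, which gives base excision repair a further chance to restore the original pair. Inherited loss of MUTYH causes a colorectal polyposis with G-to-T changes. The comparison asks which transcripts differ by MUTYH status when OGG1 status is held constant.

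Total counts were 22225091 to 22458937 per library. Before the TMM normalization factors (0.96 to 1.02) were applied, 1 CPM (counts scaled to library size) rested on about 22.2 to 22.5 counts. Mitochondrial transcripts took 3.75% to 7.46% of counts in MUTYH-lacking and 4.38% to 6.59% in MUTYH-proficient libraries. Of 14 genes that HAP1 cells are known to express, 13 reached 1 CPM in at least 1 library and SOX11 was at 0. Of 23 haematopoietic markers, 17 stayed under 1 CPM in all 8 libraries, among them PTPRC and SPI1, and 6 were at 0 throughout (MPO, CSF3R, HBG1, HBG2, HBB and CD3E). The others, CD34, KIT, GATA2, RUNX1, TAL1 and ITGA2B, reached 1 CPM in at least 1 library, with GATA2 at 44.7 to 53.8 CPM. The summed level of the 23 was 102.6 to 155.8 CPM in MUTYH-lacking and 72.3 to 116.2 CPM in MUTYH-proficient libraries. TAL1 entered this sum with 2.09 CPM in WT clone 2 and 2.28 CPM in OGG1 knockout clone 1, against 24.8 to 54.8 CPM in the remaining libraries. The sum over 16 markers of stromal, epithelial and other cell types was 30.7 to 161 CPM and 47.7 to 144 CPM, with KRT5, KRT14 and INS at 0. The part of these markers in the differences below was not tested.

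The transcript of the targeted gene did not separate the sets. MUTYH (GRCh38 chromosome 1, 45329163 to 45340893) was counted 101 times in MUTYH knockout clone 7 and 83 times in clone 8, while the DKO gave 106 (clone 4) and 50 (clone 14). The WT clones gave 105 (clone 2) and 89 (clone 11), and the OGG1 knockout 119 (clone 1) and 82 (clone 22). The sets overlapped, with a log2 difference of -0.21 ± 0.28 (SE). A small insertion or deletion need not lower the transcript of the gene it disrupts, so these counts do not check the knockout. The study checked both knockouts at the protein level by targeted mass spectrometry and reports them as verified in every clone. MUTYH overlaps TOE1 on the genome, and the strand setting of the counting is not given in the sources used here. OGG1 (chromosome 3, 9749944 to 9788219), which overlaps CAMK1 and TADA3, was low in OGG1 knockout clone 1 alone (1.23 CPM, against 9.75 to 14.5 CPM in the other 7 libraries).

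Few genes separated MUTYH-lacking from MUTYH-proficient clones, and none passed correction for multiple tests. Of 17881 genes tested, 114 (0.638%) were differentially expressed genes (DEGs), defined by a difference beyond 1 on the log2 scale with P, before adjustment, no higher than 0.05. Of these, 74 (0.414%) were higher and 40 (0.224%) lower in MUTYH-lacking clones. With the quasi-likelihood test of edgeR, 0 genes had a Benjamini-Hochberg adjusted p of at most 0.05, and the smallest was 0.9999. Before adjustment, 312 genes (1.74%) reached P of 0.05 or less, a smaller share than the threshold of 0.05 itself. The Wald test of DESeq2 put 3 genes past adjustment, namely SLC19A3, DHRS2 and APC2. The median log2 difference over all tested genes was -0.00065, and 90% of genes lay between -0.40 and 0.42. Libraries of the sets did not overlap for 268 genes (1.5%), 153 higher (0.856%) and 115 lower (0.643%) in MUTYH-lacking clones. Of these 34 were DEGs, 26 higher and 8 lower. With 4 libraries per set, a lack of overlap also arises without any difference by MUTYH status.

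The DEGs mostly had low counts. In such bulk libraries, a change in a share of the cells and a change in RNA per cell cannot be told apart. A mean of at least 1 CPM in either set was reached by 52 of the 114, against 15060 of the 17881 tested genes. Long non-coding RNAs made up 10.5% of DEGs and 5.25% of tested genes. The 12 DEGs of each direction with the smallest P, a mean of at least 1 CPM in either set and the same sign in both OGG1 backgrounds are described next. Each of them had an edgeR adjusted p of 0.9999, and a difference is called a DEG by the unadjusted criterion alone.

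Among the higher genes, DHRS2 (chromosome 14, 23630115 to 23645639), a short-chain dehydrogenase/reductase that reduces dicarbonyl compounds, had the smallest P. MUTYH knockout clone 8 stood at 2.25 CPM and clone 7 at 4.0023 CPM, and the DKO at 13.8 CPM (clone 4) and 11.3 CPM (clone 14). It stood at 1.38 and 1.69 CPM in WT and at 2.10 and 1.77 CPM in the OGG1 knockout. All MUTYH-lacking libraries lay above all others, though MUTYH knockout clone 8 only narrowly. The log2 difference was 1.89 ± 0.38 (SE), with 1.02 in the WT background and 2.69 in the OGG1 knockout background. DHRS2 was also one of 7 genes that were higher DEGs in each background on its own.

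FOSL2 (chromosome 2, 28392448 to 28417317) encodes a subunit of AP-1, a transcription factor that responds to growth factor signalling. It had 5.26 and 7.13 CPM in the MUTYH knockout and 5.94 and 4.84 CPM in DKO, against 1.46 and 2.94 CPM in WT and 3.52 and 2.34 CPM in the OGG1 knockout. The sets did not overlap, and the log2 difference was 1.18 ± 0.29 (SE). RAB36, a small GTPase of vesicle traffic, had 2.09 to 4.78 CPM in MUTYH-proficient and 5.64 to 7.62 CPM in MUTYH-lacking libraries, a log2 difference of 1.06 ± 0.24 (SE). Its difference was 1.15 in the WT background and 0.97 in the OGG1 knockout background. CXCL14, a chemokine, was at 2.05 to 4.61 CPM and 6.02 to 9.34 CPM (log2 difference 1.16 ± 0.30, SE). CXCL14 overlaps SLC25A48 on the other strand, and FOSL2, DIO2 and EGFR each overlap an annotated antisense transcript, so part of their counts may belong to the partner.

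In other higher genes 1 genotype carried most of the difference. GDF15, a secreted stress cytokine of the TGF-beta family and a target of p53, had 6.44 and 4.44 CPM in DKO clones 4 and 14 but 0.558 and 0.484 CPM in the MUTYH knockout. The OGG1 knockout had 0.868 and 1.33 CPM and WT 0.444 and 0.356 CPM, so the sets overlapped. GDF15 differed by 2.30 in the OGG1 knockout background and 0.38 in the WT background, an interaction of 1.93 ± 0.57 (SE). POF1B, an actin-binding protein of epithelial cells, was also highest in DKO, with 9.57 and 25.2 CPM in DKO, 5.03 and 7.04 CPM in the MUTYH knockout and 1.10 to 3.06 CPM elsewhere. The interaction of POF1B was 2.29 on the log2 scale.

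NPR3, the clearance receptor for natriuretic peptides, and DIO2, the deiodinase that activates thyroxine, leaned the other way. NPR3 had 2.09 and 7.62 CPM in the MUTYH knockout and at most 0.445 CPM in the other 6 libraries. DIO2 had 1.16 and 5.99 CPM in the MUTYH knockout, 0.816 and 0.528 CPM in DKO, and 0.0913 to 0.354 CPM in MUTYH-proficient libraries. Clone 8 was the highest library for both genes, and without it the log2 differences were 1.99 for NPR3 and 1.86 for DIO2, against 2.99 and 2.83. For neither gene did the interaction meet the DEG criterion. FUZ, an effector of planar cell polarity needed for cilia that overlaps AP2A1, and CHD5, a chromatin remodeller, were likewise highest in MUTYH knockout clone 8 (20.3 and 2.91 CPM), and their log2 differences without it were 0.98 and 0.83, against 1.41 and 1.34. The last pair in this direction were ANKUB1, without overlap between the sets at 1.65 ± 0.51 (SE), whose span holds RNF13 and PFN2, and the unplaced transcript AC090004.2 at 2.78 ± 0.81 (SE).

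**Figure D1:**
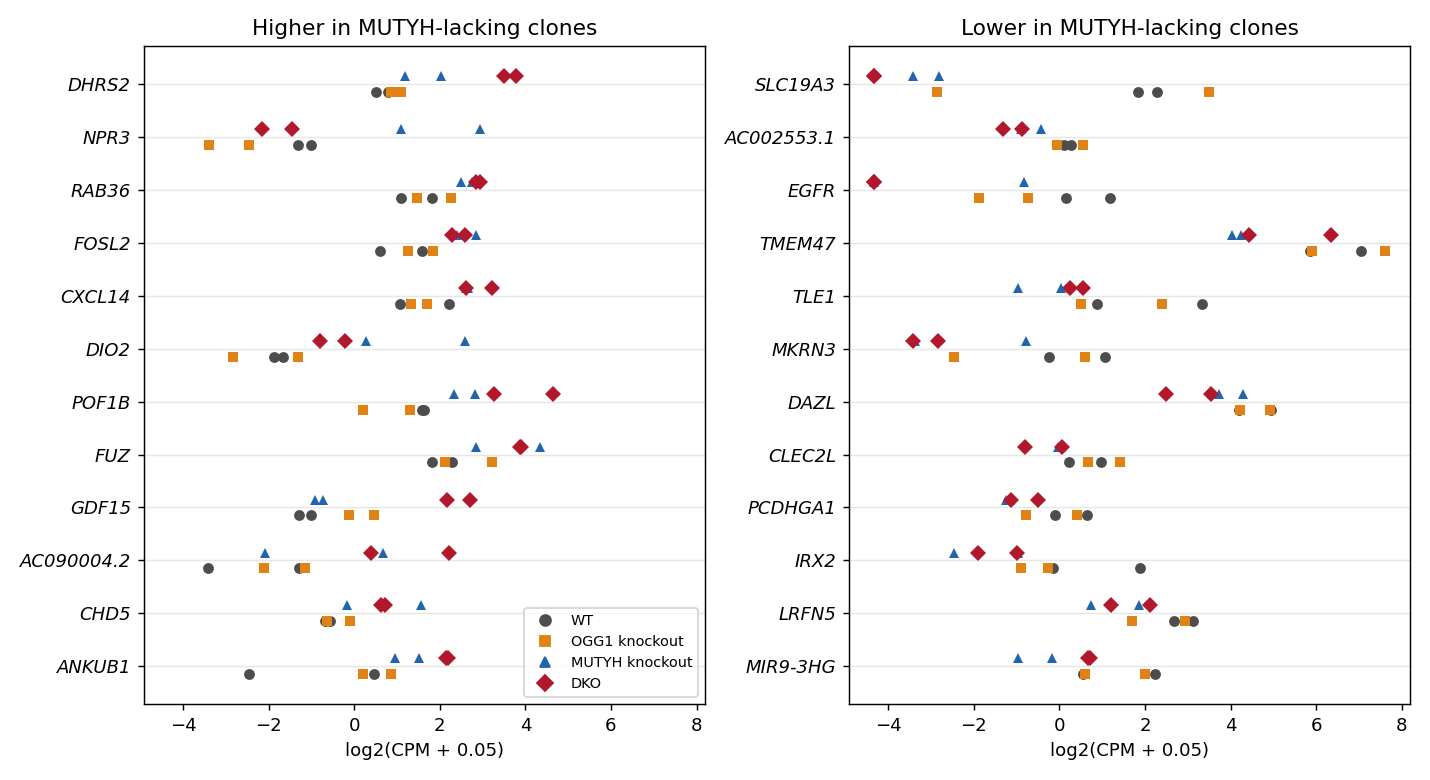
Level of each described DEG in every library, as log2(CPM + 0.05), for genes higher (left) and lower (right) in MUTYH-lacking clones; each symbol is 1 library, with MUTYH-lacking clones drawn above the gene's line and MUTYH-proficient clones below it. DHRS2, FOSL2, RAB36 and CXCL14 show no overlap between the sets, while SLC19A3 is low in OGG1 knockout clone 22 as well as in all MUTYH-lacking clones.

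Among the lower genes, SLC19A3 (chromosome 2, 227683763 to 227718028), a thiamine transporter, stood out. MUTYH knockout clone 7 held 2 counts, clone 8 held 1 and both DKO clones held 0, whereas WT clone 2 held 109 and WT clone 11 held 79. OGG1 knockout clone 1 had 245 counts, and clone 22 had 2. The log2 difference was -6.95 ± 1.45 (SE), a size that depends on the prior count of the fit because the low libraries are close to 0. With a floor of 3 counts per library, DKO was at least 42.0-fold lower than the mean of the OGG1 knockout, but that mean came from clone 1 alone. SLC19A3 was thus already near 0 in the library taken as the parent of the DKO clones.

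EGFR (chromosome 7, 55019017 to 55211628), the epidermal growth factor receptor, had 0 counts in 3 of 4 MUTYH-lacking libraries and 11 in MUTYH knockout clone 7. There were 24 counts in WT clone 2, 50 in WT clone 11, 12 in OGG1 knockout clone 1 and 5 in clone 22. The level of clone 7 (0.512 CPM) lay between those of the OGG1 knockout clones, so the sets overlapped by 1 library. The fitted log2 difference was -3.15 ± 0.91 (SE) with all libraries and -7.17 without clone 7, and both sizes depend on the prior count. Against the floor of 3 counts, DKO was at least 2.87-fold lower than the OGG1 knockout.

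TMEM47, a membrane protein of cell junctions, had the highest counts of the lower genes. It had 16.4 and 18.9 CPM in the MUTYH knockout and 21.6 and 81.9 CPM in DKO clones 4 and 14, against 132 and 57.8 CPM in WT and 195 and 59.8 CPM in the OGG1 knockout. DKO clone 14 therefore lay above WT clone 11 and OGG1 knockout clone 22. The log2 difference was -1.86 ± 0.55 (SE). TLE1, a Groucho-family corepressor, was at 0.465 to 1.41 CPM in MUTYH-lacking libraries, but WT clone 11 and OGG1 knockout clone 22 were also low (1.78 and 1.37 CPM). The highest levels were those of WT clone 2 and OGG1 knockout clone 1, at 9.98 and 5.21 CPM.

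The remaining lower genes included germline, developmental and adhesion genes. DAZL, a germ cell RNA-binding protein, had 13.3 and 19.6 CPM in the MUTYH knockout, 5.53 and 11.6 CPM in DKO and 18.1 to 30.6 CPM in MUTYH-proficient libraries, with a log2 difference of -1.03 ± 0.34 (SE). MKRN3, an imprinted gene expressed from the paternal allele, had 0.044 to 0.528 CPM against 0.133 to 2.05 CPM. IRX2, a homeobox factor, did not overlap between the sets (0.132 to 0.465 against 0.487 to 3.64 CPM), and its log2 difference moved from -1.95 to -1.15 without WT clone 2. LRFN5, a synaptic adhesion molecule, and MIR9-3HG, the host transcript of a miR-9 copy, differed by -1.12 and -1.47. LRFN5 did not meet the criterion without DKO clone 4, OGG1 knockout clone 1, MUTYH knockout clone 7 or WT clone 11 (-0.86 to -1.03). MIR9-3HG did not meet it without either MUTYH knockout clone, OGG1 knockout clone 1 or WT clone 2, and was -0.92 without the last. CLEC2L, a C-type lectin, and the transcript AC002553.1 did not overlap between the sets, at -1.05 and -1.15. PCDHGA1, at -1.18, belongs to the gamma protocadherin cluster, where 27 annotated genes overlap its span, so its counts are uncertain. When 1 library at a time was left out, 7 of the 12 lower and 5 of the 12 higher genes lost the call at least once. Besides those given above these were RAB36 (without WT clone 11, OGG1 knockout clone 1 or MUTYH knockout clone 7) and CXCL14 (without DKO clone 4), and among lower genes AC002553.1 (without OGG1 knockout clone 22), DAZL (without WT clone 11, OGG1 knockout clone 1 or DKO clone 4), CLEC2L (without WT clone 11, OGG1 knockout clone 1 or DKO clone 14), PCDHGA1 (without WT clone 11, OGG1 knockout clone 1 or either MUTYH knockout clone) and IRX2 (without WT clone 2 or either MUTYH knockout clone).

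Leaving out OGG1 knockout clone 1 left 171 DEGs, of which 88 were higher and 83 lower, and 74 of the original 114 were among them. Relative to clone 22 alone, the mean of DKO was over 1 (log2) above it for 49 of the 74 higher DEGs and over 1 below it for 16 of the 40 lower DEGs. Relative to clone 1 alone, the counts were 54 and 22. Over all 17881 tested genes, in the direction of each gene's own difference, they were 943 for clone 22 and 813 for clone 1. These libraries also entered the fit that chose the DEGs, which favours that direction, so the counts are a description. Of 18 genes under 0.1 CPM in clone 1 and at least 1 CPM in clone 22, 14 were at least 1 CPM in both DKO clones and 0 were under 0.1 CPM in both. Of 19 genes that were under 0.1 CPM in clone 22 and at least 1 CPM in clone 1, 5 were under 0.1 CPM in both DKO clones and 0 reached 1 CPM in both. The MUTYH difference within the OGG1 knockout background and the distance between clone 1 and the lineage of clone 22 cannot be fully told apart.

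The MUTYH difference was then taken separately in each OGG1 background, in comparisons that share no library. MUTYH knockout against WT gave 212 DEGs (1.19%), 73 higher and 139 lower. DKO against OGG1 knockout gave 258 DEGs (1.44%), 189 higher and 69 lower. The predominant direction was therefore opposite, with 34.4% of DEGs higher in the first and 73.3% in the second. Across the 17881 genes, which are not independent replicates, the log2 differences in the backgrounds had a Pearson r of -0.121 and a Spearman rho of -0.0692, and 48.2% of genes had the same sign. DEGs of both backgrounds numbered 33, which is 15.6% of the first list and 12.8% of the second.

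Of these 33 genes, 10 moved the same way and 23 in opposite directions. The higher ones in both were DHRS2, the histone gene H2BC7, the matrix protein gene ECM2, the zinc finger gene ZNF404 and the transcripts WAKMAR2, AP002336.2 and AC009962.1. The lower ones in both were SLC19A3, HAPLN2, which encodes a link protein of hyaluronan matrix, and SETBP1-DT. Only 2 of the 10 had a mean of at least 1 CPM in either set, namely DHRS2 and SLC19A3. Of the 23 opposite genes, 20 were lower in the MUTYH knockout than in WT and higher in DKO than in the OGG1 knockout.

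**Figure D2:**
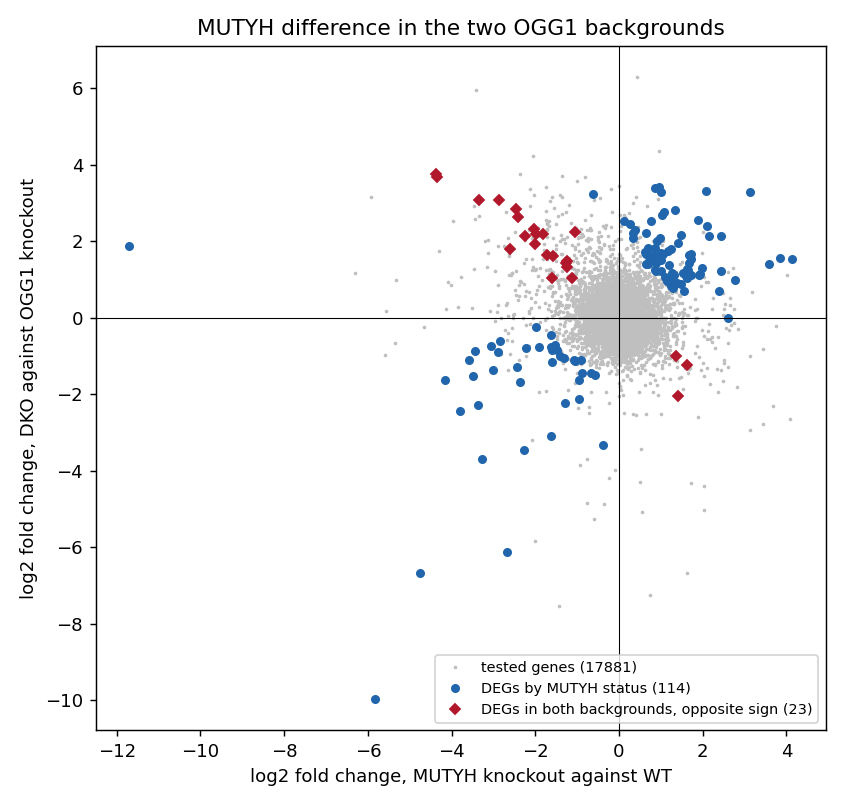
Each point is 1 of 17881 tested genes, placed by its log2 fold change in MUTYH knockout against WT (x axis) and in DKO against OGG1 knockout (y axis). The 114 DEGs by MUTYH status lie mainly in the quadrants of shared sign, which their selection in the joint fit favours, and 20 of the 23 DEGs of opposite sign lie at the upper left.

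The difference between backgrounds was tested as an interaction, that is, the MUTYH difference in the OGG1 knockout background minus the one in the WT background. By the DEG criterion 358 genes (2%) passed, 252 with a positive and 106 with a negative value. For 220 of the 252 the means of WT and DKO both lay above the means of both single knockouts, and for 89 of the 106 both lay below them, orders that the choice of genes by their interaction favours. The positive share of 70.4% with all libraries was 53.7% without DKO clone 4 (151 positive, 130 negative) and 54.7% without WT clone 11 (435 and 360). Only 1 gene passed adjustment in edgeR, against 21 in the Wald test of DESeq2.

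That gene was THSD7B (chromosome 2, 136765545 to 137677718), which encodes a protein with thrombospondin type 1 domains. It had 0.233 and 0.220 CPM in the MUTYH knockout against 10.1 and 8.51 CPM in WT. In DKO it had 11.5 and 9.63 CPM against 4.61 and 6.06 CPM in the OGG1 knockout. THSD7B was thus low only in the MUTYH knockout, and DKO, which also lacks MUTYH, had the highest mean. The interaction was 6.31 on the log2 scale (edgeR adjusted p = 0.0179), and it was 6.13 to 6.52 when any 1 library was left out, with no adjusted p at or under 0.05 in those fits.

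EGR1, an immediate early transcription factor downstream of ERK, had 3.49 and 4.45 CPM in the MUTYH knockout and 6.81 and 7.61 CPM in the OGG1 knockout. It had 13.4 and 10.6 CPM in WT and 15.9 and 13.7 CPM in DKO. Every single-knockout library lay below every WT and DKO library, and the interaction was 2.63 ± 0.34 (SE). SYT6, a synaptotagmin, showed the same order, with 1.81 to 2.97 CPM in the single knockouts and 4.13 to 7.39 CPM in WT and DKO. MET, the receptor for hepatocyte growth factor, had 54.0 to 61.9 CPM in both WT and the MUTYH knockout, 41.3 and 37.6 CPM in the OGG1 knockout and 89.3 and 105 CPM in DKO. MET differed by -0.03 by MUTYH status in the WT background and by 1.30 in the OGG1 knockout background. LBX1-AS1, a long non-coding RNA, was at 0 and 0.352 CPM in the MUTYH knockout and 7.95 to 10.8 CPM in the other 6 libraries.

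Among genes picked out after their values were seen, ID1, ID2 and ID3, inhibitors of basic helix-loop-helix factors and targets of BMP signalling, moved together in the negative direction. ID1 had 64.4 and 67.7 CPM in the MUTYH knockout against 29.0 and 37.6 CPM in WT, and 37.9 and 35.3 CPM in DKO against 39.0 and 43.1 CPM in the OGG1 knockout. The interactions were -1.15, -1.25 and -1.17 for ID1, ID2 and ID3. NQO1, a quinone reductase and a target of NRF2, had 109 and 111 CPM in the MUTYH knockout against 56.4 and 65.5 CPM in WT, and 63.5 and 46.6 CPM in DKO against 75.4 and 96.4 CPM in the OGG1 knockout, an interaction of -1.49. MGMT, which repairs O6-alkylguanine, was one of the 3 opposite genes that were higher in the MUTYH knockout, at 7.45 and 13.6 CPM against 3.28 and 4.59 CPM in WT. In DKO it had 0.317 and 0.044 CPM against 0.776 and 0.752 CPM in the OGG1 knockout. None of these genes passed adjustment in edgeR. In the Wald test of DESeq2 for the interaction, ID2 and NQO1 were past adjustment, as were THSD7B, EGR1, SYT6, MET and LBX1-AS1.

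**Figure D3:**
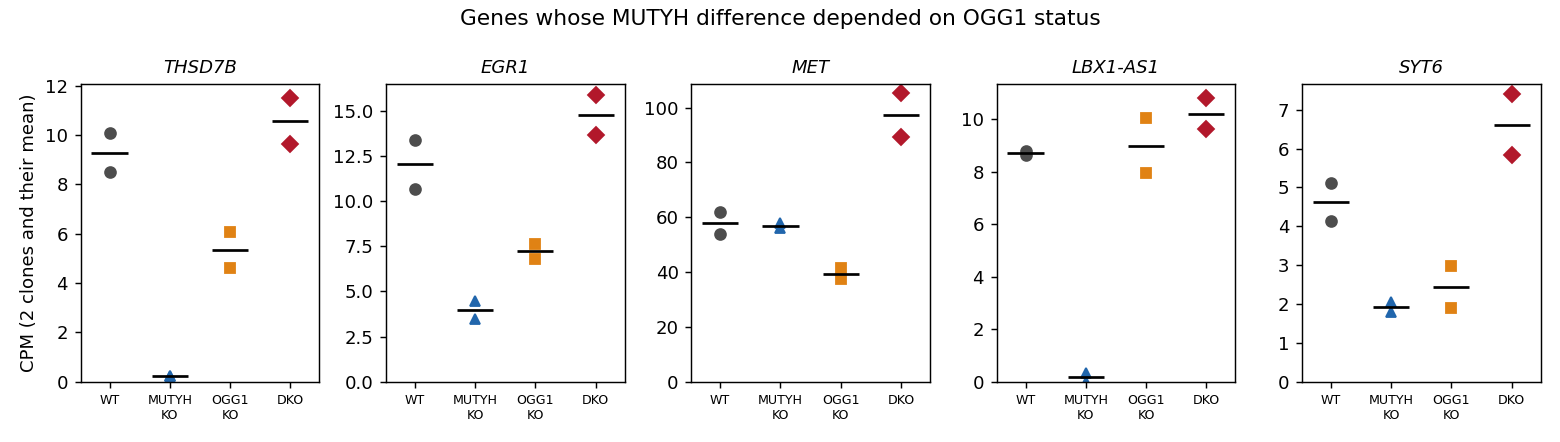
CPM of the 5 genes named for the interaction, by genotype; each symbol is 1 clone and the bar is the mean of 2 clones, with every axis starting at 0. THSD7B and LBX1-AS1 are near 0 only in the MUTYH knockout, EGR1 and SYT6 are lower in both single knockouts than in WT and DKO, and MET is highest in DKO.

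Gene lists for the pathways around MUTYH were described by their counts and medians, beside the median of -0.00065 and the 0.638% of DEGs over all tested genes. In 8-oxoguanine and base excision repair, 0 of 31 tested genes were DEGs and the median was -0.00079, with a range of -0.29 to 0.46. LIG3, the ligase of short-patch repair, was the only 1 of the 31 without overlap between the sets, beside 1.5% of all tested genes. It had 67.4 to 75.8 CPM in MUTYH-lacking and 76.5 to 82.2 CPM in MUTYH-proficient libraries, a log2 difference of -0.15 ± 0.08 (SE). In mismatch repair and the replication partners of MUTYH, 0 of 25 were DEGs and all lay between -0.19 and 0.18. Enzymes that scavenge hydrogen peroxide and superoxide gave 0 of 22, between -0.17 and 0.12. OGG1 itself, at 0.40 with all libraries, was at 1.03 without OGG1 knockout clone 22 and 0.65 within the OGG1 knockout background.

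Among NRF2 targets 1 of 28 was a DEG, AKR1C3, an aldo-keto reductase with at most 13 counts in any library (log2 difference 1.39 ± 0.58, SE), whose paralogs could share reads. AKR1C3 met the criterion in only 2 of the 8 fits that left out 1 library, those without MUTYH knockout clone 7 or DKO clone 14. HMOX1, which degrades haem, differed by 0.41. Among p53 targets and regulators 1 of 26 was a DEG, GDF15, the median was 0.15 and 23 of 26 were above 0. The integrated stress response gave 0 of 29, with PPP1R15A at 0.57, INHBE at 0.64 and ASNS at -0.79, each under P of 0.05 before adjustment. ASNS, which makes asparagine, had 1.95 and 2.29 CPM in the MUTYH knockout and 3.76 and 3.78 CPM in DKO, against 3.20 to 6.39 CPM in MUTYH-proficient libraries.

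Immediate early genes and other outputs of ERK signalling held the most DEGs of any list, with 3 of 33 higher, 0 lower, a median of 0.23 and 25 above 0. Besides FOSL2 these were SPRY4, a feedback inhibitor of receptor tyrosine kinases, and EGR2. EGR2 had 1.04 and 1.10 CPM in DKO and 0.133 to 0.352 CPM in all other libraries, MUTYH knockout included, and SPRY4 was highest in DKO clone 4 at 2.54 CPM, against at most 0.796 CPM elsewhere. FOSL2 did not meet the criterion without WT clone 2 (0.95). EGR2 did not meet it without any 1 of the 4 OGG1-lacking clones (0.97 to 1.23), nor SPRY4 without DKO clone 4, OGG1 knockout clone 1, MUTYH knockout clone 8 or WT clone 2 (0.97 to 1.56). The median of the list was 0.01 in the WT background and 0.42 in the OGG1 knockout background. Cholesterol synthesis gave 0 DEGs of 25, with a median of -0.15 and 3 above 0. Among its members SREBF1, the transcription factor of lipid synthesis, differed by -0.50 and MVD, an enzyme of the mevalonate pathway, by -0.35. The cholesterol median was -0.01 in the WT background and -0.22 in the OGG1 knockout background.

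S phase genes and mitosis genes gave 0 DEGs of 30 each, with medians of 0.02 and 0.06 and with 22 and 20 genes above 0. The mitotic kinase gene PLK1 did not overlap between the sets, at 333 to 365 CPM in MUTYH-lacking and 311 to 319 CPM in MUTYH-proficient libraries, but differed by 0.14 only. PLK1 was the only 1 of the 30 mitosis genes without overlap, beside 1.5% of all tested genes. The glycolysis and retinoic acid lists below also held 1 such gene each. The Polycomb and DNA methylation machinery (0 of 32), glycolysis and hypoxia genes (0 of 29), interferon-stimulated genes (0 of 30), retinoic acid and developmental genes (0 of 45) and mitochondrially encoded mRNAs (0 of 13) had medians between -0.01 and 0.07. Axon guidance genes (0 of 49) and matrix genes (0 of 37) had medians of -0.09 and -0.05, with 11 and 15 genes above 0. An uneven count of signs was thus also found in lists without any DEG. Matrix genes had opposite medians in the backgrounds, 0.17 in WT and -0.30 in the OGG1 knockout.

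**Figure D4:**
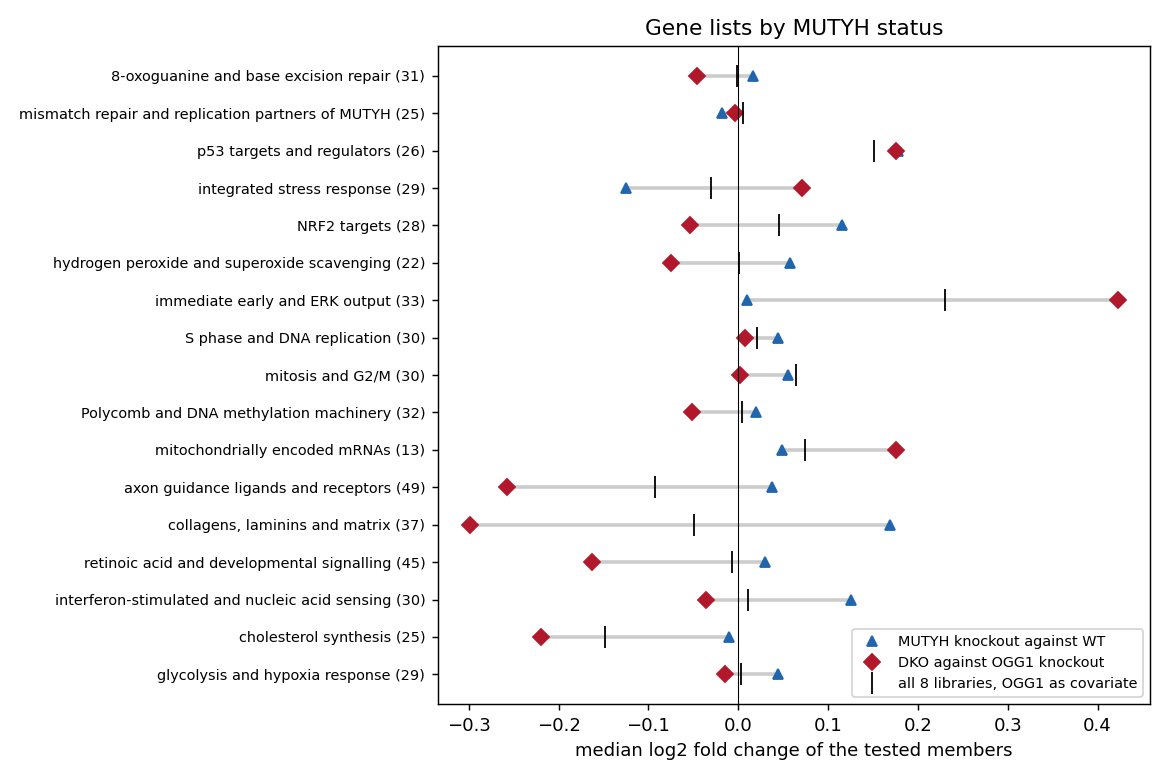
Median log2 fold change of the tested members of each list (number tested in parentheses) in MUTYH knockout against WT (triangles), DKO against OGG1 knockout (diamonds) and all 8 libraries with OGG1 as covariate (bars). Medians of base excision repair and mismatch repair lie near 0 in both comparisons, whereas the immediate early list reaches 0.42 in DKO against OGG1 knockout only.

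No nuclear chromosome arm shifted as a whole by over 0.1 on the log2 scale, and the medians ran from -0.06 at 1q to 0.06 at 20p. In the WT background 1q had a median of -0.12, where WT clone 2 stood 0.23 above the mean of the 8 libraries. In the OGG1 knockout background 6q had a median of 0.10, where DKO clones 4 and 14 stood 0.09 and 0.07 above that mean. The 37 mitochondrial genes had a median of 0.14, and the fit without shifted arms left out only these, so it removed no nuclear arm. The count of DEGs rose to between 146 and 254 when any 1 library was left out. The share that was higher ran from 39.7% without DKO clone 4 to 75.3% without WT clone 2, against 64.9% with all libraries, so the excess of higher over lower DEGs turned around without DKO clone 4 (58 higher, 88 lower) and without OGG1 knockout clone 22 (94 and 96). A further fit carried a covariate drawn from these same libraries, which placed 1 clone of each genotype on either side by the first principal component of the differences between clones of a genotype, and which crosses MUTYH status by construction. It gave 138 DEGs, 84 higher and 54 lower, and 0 past adjustment. That component held 49.9% of the variance between clones of a genotype. With the covariate, 817 genes (4.57%) had an unadjusted edgeR P of at most 0.05 by MUTYH status, against 312 (1.74%) without it. For the interaction there were 1255 such genes (7.02%), against 469 (2.62%). Because the covariate came from these same libraries, these shares are a description.

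**Figure D5:**
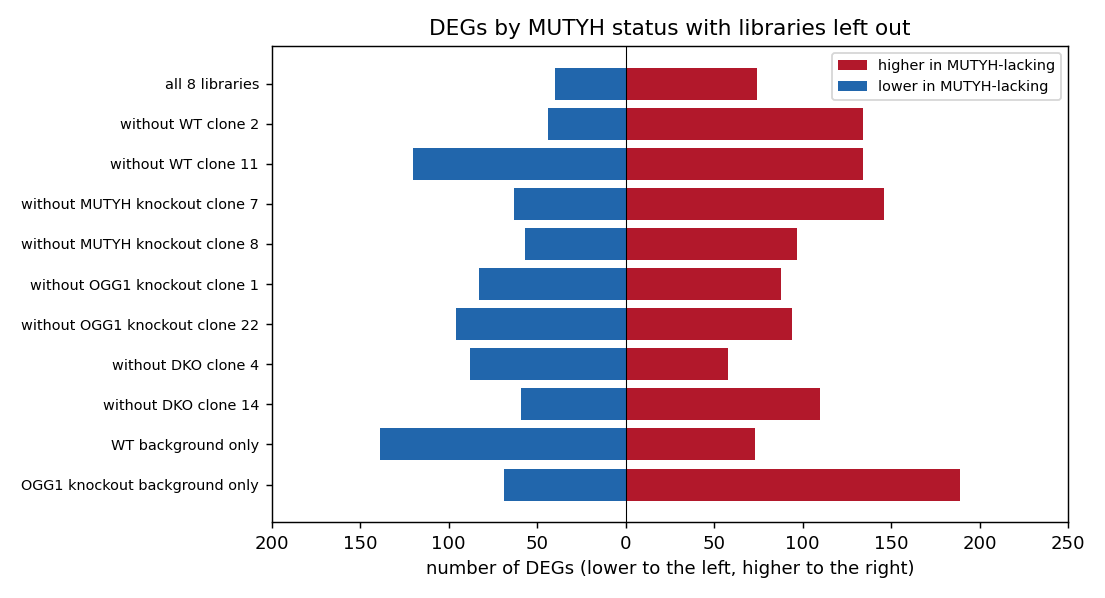
Number of DEGs by MUTYH status, higher to the right and lower to the left of 0, with all 8 libraries, without each library in turn and within each OGG1 background. Higher DEGs number 74 with all libraries and 58 without DKO clone 4, and lower DEGs outnumber higher ones in the WT background (139 against 73).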

How the data were processed

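The authors sequenced RNA on a DNBseq platform, aligned reads to GRCh38 with HISAT2 2.2.1 and assigned them to Ensembl release 103 genes with featureCounts (Rsubread). The deposited values were whole-number counts, not normalized; FastQC 0.11.9 and edgeR 3.42.4 are named in the submitters' processing notes. Whether counting used strand, and how multi-mapping reads were treated, is not given in the sources used here, so overlapping genes and paralogs may share reads. A table of H2O2-treated WT cells was not used here.

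Of 59453 genes, 38434 (64.6%) matched GENCODE v44 (GRCh38) by a unique symbol, which gave positions. Genes were filtered with filterByExpr by genotype, normalized with TMM (factors 0.96 to 1.02) and tested in R 4.3.3 with edgeR 4.0.16 (quasi-likelihood F test, legacy=TRUE, two-sided) in a model of OGG1 and MUTYH status with 5 residual degrees of freedom. Background differences and the interaction came from 4 genotype means (4 degrees of freedom). The DEG criterion (P of at most 0.05, log2 beyond 1) is that of the study. CPM used total counts times TMM factors. Standard errors were derived from the F statistic. P values from the 4 genotype means measure the spread between clones. Those of the main model, and its standard errors, also hold the difference between OGG1 backgrounds, because it has no interaction term. Counting floors (3 counts) cover counting error only. No pair of libraries agreed within counting error (smallest chi-square per degree of freedom 10.9).

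The genes described are MUTYH, OGG1, 12 DEGs per direction by the rule stated in the text, the 5 interaction DEGs with the smallest P and a mean of at least 1 CPM in some genotype, and list members that were DEGs; others are said to be chosen later. The comparison, the lists and this rule were chosen with earlier results of these data known. The scripts were tested on simulated data. Alternatives were DESeq2 1.42.0 size factors and Wald test, legacy=FALSE, no filter, at least 10 counts in every library, the 2-way split as covariate (sign of the first principal component of within-genotype residuals), no OGG1 covariate, genotype means, single backgrounds, shifted chromosome arms left out, and each library left out.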

Additional observations from a re-analysis of the deposited data

Results flagged for a closer look

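With edgeR and all 8 libraries, THSD7B was the gene whose MUTYH difference depended on OGG1 status past adjustment, with an interaction of 6.31 on the log2 scale. It did not pass adjustment in any fit that left out 1 library, and the Wald test of DESeq2 put 21 genes past adjustment. A gap test on log2 CPM looked for a sample far from the other 3 of its set. In it, 6 genes passed Dixon's critical value at the 95% level. Chance alone flags about 1 in 20 groups, and both sets were examined for each described gene. OGG1 was set apart by OGG1 knockout clone 1 (gap of 0.933 of the range, 1.23 CPM). CXCL14 was set apart by DKO clone 4 (0.899, 9.34 CPM) and EGFR by MUTYH knockout clone 7 (1, 0.512 CPM, with the other 3 MUTYH-lacking libraries at 0). With those 3 tied at 0 the ratio is 1 at any level of clone 7, so nothing is read from the flag for EGFR. Each set holds clones of different genotypes, so the gap test does not tell a single clone from a genotype. DKO clone 14 stood apart for TMEM47 (0.82901, 81.9 CPM, the highest), CLEC2L (0.877, 0.528 CPM, the lowest) and PCDHGA1 (0.845, 0.659 CPM, the highest).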

How the results depend on the processing

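No paired analysis was possible because the groups compared share no replicate (clone) numbers. With 114 DEGs by MUTYH status, 358 interaction DEGs, and 0 and 1 genes past adjustment, other settings gave the following. Without a filter there were 391 and 719 DEGs, and with at least 10 counts in every library 25 and 218, with 0 interaction genes past adjustment; these settings tested 34824 and 15068 genes, and the latter left 16 of the 34 named genes untested, THSD7B among them. The DESeq2 Wald test put 3 and 21 genes past adjustment. The split as covariate gave 567 interaction DEGs. The WT background alone gave 212 DEGs and 1 gene past adjustment (THSD7B), and the OGG1 knockout background 258 DEGs. Leaving out 1 library gave 146 to 254 DEGs by MUTYH status with 0 to 1 past adjustment (1 without WT clone 11), and 216 (without WT clone 2) to 795 (without WT clone 11) interaction DEGs with 0 past adjustment; 65 to 84 of the 114 DEGs were shared. The cause of these changes was not tested. Over the single genes described, 529 of 605 recomputed values kept their direction and side of the criterion. Another 75 fell short of it and 1 reversed. The reversed value was that of MUTYH itself, whose log2 difference was -0.42 (without DKO clone 4) to 0.0017 (without DKO clone 14). The 605 include the fits of single backgrounds. The higher and lower DEGs described were named only if both backgrounds had the same sign. Their direction in the single-background fits was therefore set by the choice of genes and is no check. Apart from single backgrounds and left-out libraries, 4 of the 275 values that could be computed fell short (SPRY4 and DAZL without the OGG1 covariate, AKR1C3 with the Wald test and with the split). With 2 clones per genotype, a difference between genotypes and between clones cannot be separated further, and 1 CPM rests on about 22 counts.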

Other observations

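Replication-dependent histone genes, chosen after their values were seen, all had positive log2 differences by MUTYH status. Of 26 tested, 26 were above 0 (median 0.64, range 0.14 to 2.14), with a median of 0.42 in the WT background and 0.78 in the OGG1 knockout background. DEGs among them were H2BC7 (2.14) and H2BC18 (1.01), both without overlap between the sets and with at most 12 and 22 counts in any library. In all 2 of 26 were DEGs and 7 had an unadjusted edgeR P of at most 0.05, against 0.638% and 1.74% of all tested genes; the family was picked for these values, so nothing is read from the counts. Their summed level was 56.1 and 39.3 CPM in MUTYH knockout clones 7 and 8 and 78.6 and 70.1 CPM in DKO clones 4 and 14, against 26.0 and 43.2 CPM in WT and 40.0 and 41.8 CPM in the OGG1 knockout, so MUTYH knockout clone 8 overlapped the MUTYH-proficient libraries. H4C14 and H4C15, like H3C14 and H3C15, are near-identical copies whose counts are uncertain. Both pairs, and also H2AC18 and H2AC19, had nearly the same counts in every library (83 and 84 for the last pair in DKO clone 4). The 26 genes are therefore not 26 separate signals, and the summed level may hold the same reads more than once. The summed level of the S phase and mitosis lists was 11661 to 12680 CPM in MUTYH-lacking and 11047 to 12482 CPM in MUTYH-proficient libraries.

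A few genes with higher counts also separated the sets below the fold criterion. APC2, a paralog of the Wnt regulator APC, had 14.2 to 20.7 CPM in MUTYH-lacking and 9.31 to 13.6 CPM in MUTYH-proficient libraries, a log2 difference of 0.70 ± 0.13 (SE) that was 0.69 and 0.70 in the 2 backgrounds. PURPL, a long non-coding RNA induced by p53, was at 23.3 to 33.2 CPM against 12.5 to 21.0 CPM (0.61 ± 0.15, SE). ALCAM, a cell adhesion molecule, was at 19.5 to 23.8 CPM against 30.8 to 47.8 CPM (-0.72 ± 0.17, SE). None passed adjustment in edgeR, and APC2 did in the Wald test of DESeq2.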
